A study of Mus musculus with 12 samples.

Results

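The comparison described here was the exit from pluripotency of mouse embryonic stem cells (mESCs) in which PROSER1 had been lost and then put back. The 4 libraries of the KO+Rescue line were chosen by their genotype and stage, out of 12 RNA-seq libraries in the series. Of these, 2 were made from mESCs and 2 from cells after 48 h (day 2) in N2B27 medium. All lines derived from blastocysts carrying floxed alleles of Tet2 (TET2 fl/fl), so this allele was shared by every group. The KO line was a clone picked from sorted cells after cutting exon 1 of Proser1 with Cas9. The KO+Rescue line was a clone of KO cells that carried a PiggyBac transposon with Proser1 tagged with FLAG and a blasticidin resistance gene. A difference between lines is therefore also a difference between clones. The WT and KO lines, with 2 libraries at each stage, served for comparison. The mESCs grew without feeders on gelatin in serum with LIF and 2 kinase inhibitors (CHIR99021, which inhibits GSK3, and PD0325901, which inhibits MEK). N2B27 is a serum-free medium with the N-2 and B-27 supplements, and none of the other agents is listed in it.

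Mouse ES cells kept in this way hold a naive state that resembles the epiblast before implantation. On removal of LIF and the inhibitors they shut down the naive transcription factors, pass through a formative state that resembles the epiblast after implantation, and in N2B27 go on towards neural progenitors. PROSER1 has been described as part of complexes that hold TET2 and the glycosyltransferase OGT, where TET proteins convert methylated cytosine to its oxidised forms.

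Proser1 itself was read first. In the KO+Rescue line its normalised count was 2828 and 3089.8 in mESC libraries A and B, and 3041 and 2994 in day 2 libraries A and B. All 4 values lay above those of the other 8 libraries, which ranged from 502 to 1067. Its log2 stage change (day 2 against mESC) in KO+Rescue was 0.03 ± 0.20 (SE, 2 libraries a side, limma adjusted p = 0.907). Reads from the transgene and from the edited endogenous gene count towards the same symbol. Small lesions made by a guide need not remove the RNA, so its level in the KO libraries does not check the KO label. The guide is shown because it defines the parental KO line, with the BstBI site at the cut, used to screen clones, in capitals.
Proser1 guide: gtgctggatgaaaTTCGAA
It matched the plus strand of GRCm39 at chr3:53371720-53371738, inside the coding part of exon 1 of Proser1 (GENCODE vM39), and was followed by AGG.

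The values are read counts per gene divided by a size factor for each library. The 4 KO+Rescue libraries held between 38634668 and 55343981 reads on genes, and the 12 libraries between 38634668 and 66450803. In KO+Rescue mESC library B, the one that stood apart, 23.9% of its normalised counts lay on ribosomal protein genes, against 18.8% in mESC library A, 17.9% and 19.6% at day 2, and 12.8% to 20.2% in the other lines. The replicates differed by more than counting error (chi-square per gene of 87.3 in mESCs and 15.9 at day 2), so they were counted as separate libraries. A sum over bulk RNA cannot tell fewer cells of a type from less RNA per cell.

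Of 15341 genes with a mean of at least 10 over the 12 libraries, 4472 rose (29.2%) and 4463 fell (29.1%) between mESC and day 2 in the KO+Rescue line (limma, adjusted p under 0.05). The stage change was at least 2-fold for 2868 of the genes that rose and 2192 of those that fell. It was at least 16-fold for 345 and 277. The median SE of a log2 stage change was 0.20, and the smallest change that was called was 1.2-fold. When every library was scaled to the same total instead, 6171 genes rose and 2496 fell (71.2% of calls were rises, against 50.1%), and the median log2 stage change of all genes moved from -0.03 to 0.34. Log2 stage changes below about this size are therefore relative to the scaling. The median of each gene list below stands against a median of -0.03 over all genes tested. The counts of each list stand against 29.2% rising and 29.1% falling, and a count near these shares says nothing particular about its list. Members with almost no mESC reads passed the filter through day 2 values, so their rises are no separate evidence on a list.

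**Figure D1:**
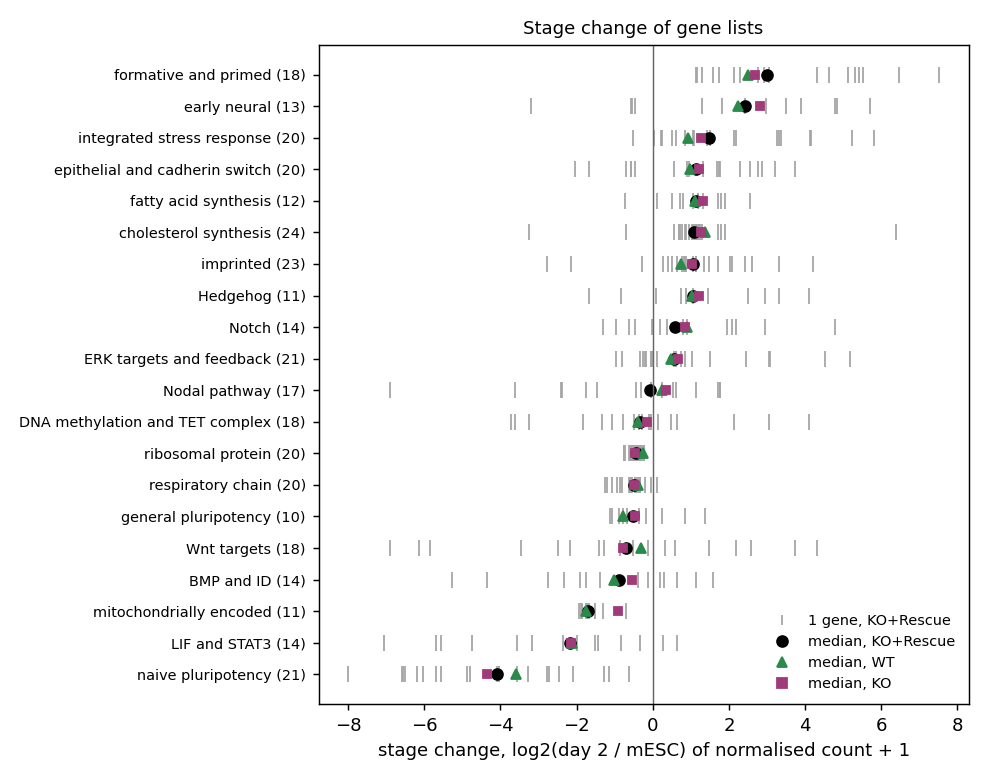
Stage change, as log2 of day 2 over mESC of the normalised count plus 1 (horizontal axis), for 20 gene lists (vertical axis, number of genes tested in parentheses). Grey ticks are single genes in KO+Rescue, black circles their median, green triangles and purple squares the medians in WT and KO. The naive list had the lowest median (-4.10) and the formative list the highest (2.99).

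All 21 genes of the naive pluripotency list fell, with a median log2 stage change of -4.10 (WT -3.59, KO -4.36). Nanog, a homeodomain factor of the naive network, had 41768 and 42399 in mESCs and 590.2 and 564 at day 2, a log2 stage change of -6.19 ± 0.19 (adjusted p = 1.18e-10). Esrrb, an orphan nuclear receptor, went from 10449 and 10498 to 90.3 and 131, and Tbx3, a T-box factor, from 3011 and 2778 to 28.2 and 33.8. No naive gene named here had overlapping values between the stages. With 2 libraries a side this is a weak criterion, and genes named for the largest changes were picked by it. The share among all genes tested is not given here. Tdh, the threonine dehydrogenase that mouse ES cells depend on, fell from 55712 and 49895 to 3251 and 3153. Klf4 and Tfcp2l1, which act downstream of LIF, had log2 stage changes of -5.69 and -5.57. Tcl1, a coactivator of AKT, went from 806 and 757 to 7.04 and 7.51, and the nuclear receptor gene Nr5a2 from 3234 and 2718 to 51.6 and 38.5. Zfp42, also known as Rex1, still had 2303 and 2214 at day 2 (log2 stage change -2.47). The decline thus ranged from -8.00 for Prdm14, a repressor of the formative programme, to -0.61 for Dppa4, a chromatin protein, whose call was lost without mESC library B, without day 2 library A and with equal library totals.

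The general pluripotency factors moved less. Of 10 genes, 2 rose, 5 fell and 3 did not pass the test. Pou5f1 (Oct4) had 113279 and 132326 in mESCs and 66470.5 and 75176 at day 2, a log2 stage change of -0.79 ± 0.20. Sox2 went from 11554 and 10342 to 5376 and 4644 (log2 stage change -1.13). Both factors thus fell but kept a large part of their mESC level at day 2. Utf1 and Lin28a rose, by log2 stage changes of 0.84 and 1.37. Dnmt3l, the cofactor of the de novo methyltransferases, fell from 6350.2 and 4839 to 2659 and 2608. Sall4, a zinc finger factor, did not pass the test (5261 and 4482 in mESCs and 5827 and 5754 at day 2). With equal library totals, 3 genes of the list rose and 3 fell.

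All 18 tested genes of the formative and primed list rose, with a median log2 stage change of 2.99 (WT 2.51, KO 2.68). Fgf5, a ligand of the epiblast after implantation, had 14.6 and 8.9 in mESCs and 2504 and 2075 at day 2, a log2 stage change of 7.52 ± 0.41 (adjusted p = 1.22e-08). Pou3f1 (Oct6) had 102 and 90.8 in mESCs and 9191 and 8085 at day 2, and Otx2, the homeodomain factor that marks the formative state, had 133 and 155 in mESCs and 3792 and 3313 at day 2. For all 3 genes the day 2 libraries lay far above the mESC libraries. Sox3, Sall2 and Pim2 rose by log2 stage changes of 5.32, 5.41 and 5.51. Dnmt3b, the de novo methyltransferase of the epiblast, gained more normalised counts than any gene but Tuba1a, with 8209 and 6995 in mESCs and 62491 and 63618 at day 2.

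**Figure D2:**
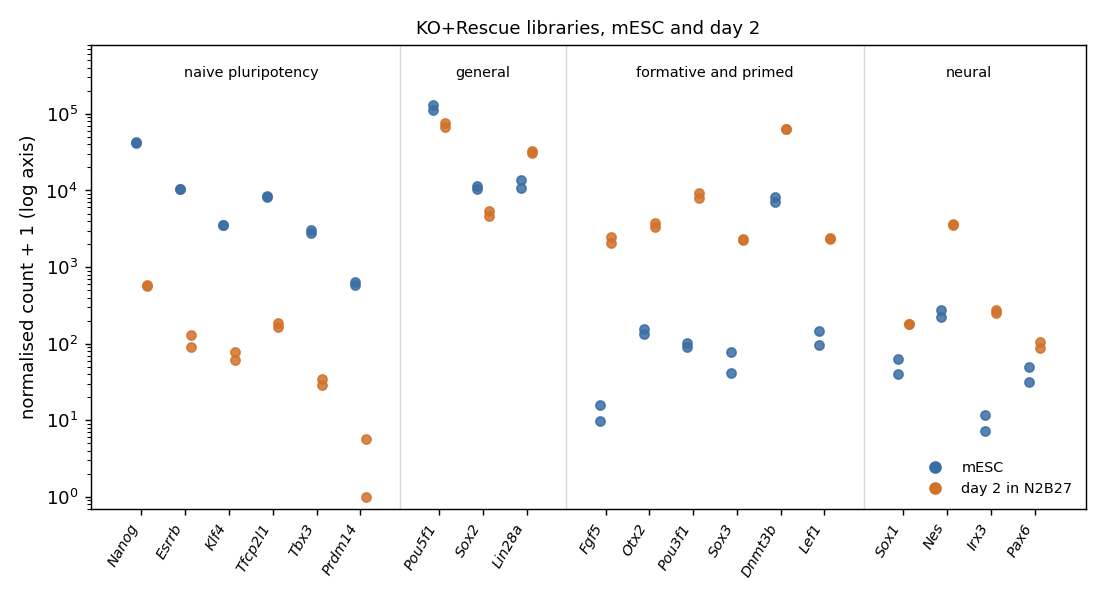
Normalised count plus 1 (log axis) of 19 genes in the 4 KO+Rescue libraries, with mESC libraries in blue and day 2 libraries in orange. The stages do not overlap for any of these genes, which were selected for display. The 6 naive genes lie lower at day 2 and the 6 formative genes higher, and Pou5f1 has the highest value at both stages.

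Early neural genes were measured at low to moderate levels. Of 22 listed genes 13 passed the filter on low values. Among these, 9 rose, 2 fell (1 without mESC library A, mESC library B or day 2 library B) and 2 did not pass the test. Nes, which encodes the intermediate filament nestin, had 221 and 271 in mESCs and 3552 and 3683 at day 2 (log2 stage change 3.88 ± 0.24). Sox11 rose from 228 and 228 to 1911 and 1712. Irx3, a homeodomain factor of the neural plate, had 6.27 and 10.7 in mESCs and 271 and 254 at day 2. Dll1, a Notch ligand, went from 11.5 and 21.4 to 427 and 499.7. Sox1 had 39.7 and 62.3 in mESCs and 181 and 178 at day 2, and Pax6, a later marker, 49.1 and 30.3 in mESCs and 104 and 87.4 at day 2. Counts of Sox1 and Pax6 were thus far below those of Nes, on a scale that is not corrected for gene length. Zic1 and Fabp7 rose by log2 stage changes of 3.51 and 5.71. Hesx1, a homeodomain repressor of the anterior epiblast, fell from 76.3 and 71.2 to 10.6 and 4.7. Hes5 and Neurog2 did not reach the filter. Genes with few mESC reads, such as Irx3, passed it through their day 2 values and could hardly fall. The count of rises is therefore no separate evidence on the list.

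Of 11 neuronal genes 7 rose and 3 fell. Those that rose included Crmp1 (log2 stage change 2.28), Elavl3 (2.86), Neurod1 (2.88), Nefm (2.42) and Dcx. Dcx, which encodes a microtubule-binding protein of migrating neurons, had no read in either mESC library and 28.2 and 33.8 at day 2, at least 7.31-fold higher than the level of 3 reads. Stmn2, a stathmin, fell from 22719 and 25356 to 3834 and 4215. Tubb3 fell by a log2 stage change of -0.44, a call that was lost without day 2 library B and with equal library totals. Of 6 glial genes, Mbp rose (log2 stage change 2.53) and Olig2 fell (-1.51), and 2 genes of the list rose without mESC library A. Of 10 listed neural crest genes 7 passed the filter, of which 5 rose and none fell. With a mean of at least 50 required, 2 rose. Those that rose included Twist1 (22 and 17.8 in mESCs and 119 and 167 at day 2) and Sox10 (1.05 and 0 in mESCs and 27 and 25.4 at day 2). Genes with almost no mESC reads, such as Dcx, Sox10 and Sox9, owed their place past the filter to day 2 values. The lack of falls is therefore no separate evidence on the neural crest list, nor is the rise of Dcx on the neuronal list. Sox9 had no read in the mESC libraries and 45.8 and 22.5 at day 2, at least 8.06-fold above the level of 3 reads.

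Most mesendoderm genes moved in the opposite direction. Of 10 genes 2 rose and 6 fell, with a median log2 stage change of -1.49. Eomes, a T-box factor of the primitive streak, had 756 and 657 in mESCs and 73.9 and 51.7 at day 2 (log2 stage change -3.49 ± 0.25). T (brachyury) went from 85.7 and 123 to 22.3 and 21.6, and Gsc from 51.2 and 62.3 to 5.87 and 0. The ligand Wnt3 rose from 7.32 and 8.9 to 63.4 and 61.1. Foxa2 also passed the test, at low counts (2.09 and 0 in mESCs and 8.21 and 5.64 at day 2), but not without mESC library B or day 2 library A. Its call was also lost with DESeq2 and in a fit of the 4 KO+Rescue libraries alone.

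The LIF pathway showed a broad decline. Of 14 genes 12 fell and 1 passed the test upwards. This was Lif, which encodes the ligand, and its call was lost without mESC library B, without day 2 library A and without day 2 library B. The receptor subunits Lifr and Il6st had log2 stage changes of -1.99 and -1.51, and the transcription factor Stat3 one of -2.35. Socs3, a feedback inhibitor and direct target of STAT3, had 2283 and 2125 in mESCs and 189 and 180.4 at day 2 (log2 stage change -3.57 ± 0.15). Icam1 fell from 3119 and 3022 to 338 and 344. Pramel7 had 144 and 123 in mESCs and no read in either day 2 library, at least 42.2-fold lower than its mESC mean at the level of 3 reads.

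Of 21 targets and feedback inhibitors of ERK 11 rose, 2 fell and 8 did not pass the test. Dusp6, a phosphatase that acts on ERK, had 1568 and 1225 in mESCs and 7488 and 7558 at day 2. Dusp4, a related phosphatase, had 76.3 and 48.1 in mESCs and 1442 and 1416 at day 2. Egr1, an immediate early gene, rose from 26.1 and 10.7 to 642 and 654. Spred3 rose as well (log2 stage change 3.07), whereas Etv4 had a log2 stage change of -0.82, which did not pass the test when library totals were made equal. The immediate early gene Fos (33.5 and 23.2 to 21.1 and 25.4) and the feedback inhibitor Spry2 (2728 and 2851 to 2564 and 2371) did not pass the test. Ccnd1 (cyclin D1) rose from 3627 and 3161 to 5244 and 4682. Among 12 FGF ligands and receptors, 4 rose and 3 fell. The ligands that fell were Fgf4 (5834 and 5211 to 2281 and 2260.1), Fgf17 (1253 and 1247 to 39.9 and 37.6) and Fgf10 (124 and 119 to 0 and 0.939). Besides Fgf5, the ligand Fgf15 rose from 9.41 and 8.9 to 325 and 379.5 and the receptor Fgfr2 from 59.6 and 39.2 to 419 and 473.

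Of 18 Wnt targets 9 fell and 5 rose. Cdx1, a caudal homeobox gene, had 1599.8 and 1378 in mESCs and 15.3 and 8.45 at day 2 (log2 stage change -6.91 ± 0.39). Notum, a secreted Wnt deacylase, fell from 988 and 785 to 8.21 and 16. Axin2, the usual feedback target of the pathway, went from 721 and 648 to 124 and 118 (log2 stage change -2.49). Sp5 fell from 179 and 191 to 9.39 and 0. Lef1, which encodes a TCF family factor, rose from 144 and 96.2 to 2389 and 2304, and Tcf7, of the same family, from 754 and 654 to 1989 and 1951. The secreted inhibitor gene Dkk1 fell from 34.5 and 21.4 to 0 and 5.64. The core motif bound by TCF factors, CTTTGAT (searched on both strands), was present in the RefSeq promoters (GRCm38.p6, 250 bases before to 50 after the start) of 2 of 13 genes of this list with an entry, Sp5 and Tnfrsf19. Of 27025 genes with a promoter entry, 4.29% held it. The stretches around both matches are shown because both genes fell, with a log2 stage change of -0.85 for Tnfrsf19. Capitals mark the motif, and the second is on the reverse strand. The promoter entry of Tnfrsf19 (chr14:61037938-61038237) belongs to a start inside the gene, which reaches 61046855.
Sp5, chr2:70474794-70474850, plus strand: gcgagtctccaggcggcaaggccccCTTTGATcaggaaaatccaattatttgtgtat
Tnfrsf19, chr14:61038158-61038214, minus strand: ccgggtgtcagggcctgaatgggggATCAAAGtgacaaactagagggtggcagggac

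Bmp4, a BMP ligand, fell from 866 and 759 to 22.3 and 17.8, and its target Id1 fell from 1080.2 and 1170.0 to 55.1 and 53.5. Id3, of the same family, fell from 3353 and 3211 to 495 and 481. Id2 rose (log2 stage change 1.15). Over the whole BMP and ID list, 6 of 14 genes fell and 3 rose (1 without mESC library B). In the Nodal pathway 7 of 17 genes fell and 6 rose. The ligand Nodal had 4432 and 4509 in mESCs and 855 and 871 at day 2 (log2 stage change -2.37 ± 0.14), and its inhibitor and target Lefty2 had 5944 and 5471 in mESCs and 495 and 439 at day 2. The activin subunit gene Inhbb fell from 763 and 695 to 4.69 and 5.64. Skil, an inhibitor of SMAD proteins, rose (log2 stage change 1.71). The coreceptor gene Tdgf1 fell from 94495 and 114943 to 19397 and 20084, and Foxh1, a partner of SMAD2, rose from 1183 and 1065 to 2318 and 2589.8. Lefty1 did not pass the test, with 1786 and 1646 in mESCs and 1918 and 2165 at day 2. The median log2 stage change of the Nodal list was -0.06, and 0.31 with equal library totals.

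Other signalling lists were mixed. Of 11 Hedgehog genes 8 rose, among them the transducer Smo (390.0 and 392 in mESCs and 3052 and 2967 at day 2) and the coreceptor Gas1 (25.1 and 8.9 in mESCs and 307 and 243 at day 2). The activator Gli2 and the target Gli1 fell (-1.67 and -0.83 on the log2 scale), Gli1 not without mESC library B, without day 2 library A or with equal library totals. The receptor and target Ptch1 rose from 606 and 627 to 1229.6 and 1056, but not without day 2 library A (adjusted p = 0.0503). Of 14 Notch genes 7 rose and 3 fell. Dll1, Jag2 and Notch3 rose (log2 stage changes 4.79, 2.20 and 2.07), and Rbpj, the DNA-binding effector of the pathway, fell (-1.31). The receptor Notch1 rose from 437 and 445 to 747 and 781 and the target Hes1 fell from 822 and 922 to 462 and 431. Of 14 retinoic acid genes 5 rose and 3 fell (35.7% and 21.4%, against 29.2% and 29.1% of all genes tested). Crabp2 rose from 255 and 351 to 2138 and 1997 and Stra6 from 2.09 and 0 to 24.6 and 64.8.

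Enzymes of cytosine methylation moved in both directions, 5 of 18 genes rising and 8 falling. Besides Dnmt3b, Dnmt3a rose from 5454 and 4730.0 to 22506 and 21965. Among the TET dioxygenases, Tet2 fell from 1535 and 1635 to 150.2 and 109.9 (log2 stage change -3.61 ± 0.18). Tet3 rose from 41.8 and 28.5 to 619.5 and 598 (log2 stage change 4.10 ± 0.41). Tet1 went from 4156 and 4645 to 2669 and 2447 (-0.78), a change that did not pass the test when library totals were made equal. Ogt fell from 6413 and 5163 to 2442 and 2133. Uhrf1, which brings DNMT1 to replicated DNA, fell from 13211 and 11414 to 8626 and 8808, a call kept only without mESC library B among the fits that left out a library and lost with equal library totals, while Dnmt1 itself did not pass the test (6461 and 6489.5 in mESCs and 6093 and 6006 at day 2). Zfp57, which protects imprints from demethylation, fell from 10572 and 11269 to 1174 and 1123. The median log2 stage change of the list was -0.33, and 0.04 with equal library totals.

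Of 19 Polycomb genes 6 rose and 5 fell (31.6% and 26.3%), near the 29.2% and 29.1% of all genes tested. The PRC2 subunits Eed and Suz12 and the accessory factor Mtf2 fell, by log2 stage changes of -1.97, -0.95 and -1.07. Cbx6 and Phc1, of PRC1, rose (1.53 and 1.17). The methyltransferase gene Ezh2 passed the test with a log2 stage change of -0.27, but not when any KO+Rescue library was left out or with edgeR, and its direction turned with equal library totals (0.09). With equal library totals 11 genes of the list rose and 4 fell. Lin28a, Lin28b and Trim71, the RNA-binding and ubiquitin ligase genes of the let-7 circuit, rose by log2 stage changes of 1.37, 1.14 and 1.08, among 6 of 10 genes that rose.

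Of 23 imprinted genes 17 rose, with a median log2 stage change of 1.06. Cdkn1c, a CDK inhibitor expressed from the maternal allele, had 302 and 303 in mESCs and 2056 and 1658 at day 2. Grb10, which encodes an adaptor of insulin receptor signalling, had 268 and 287 in mESCs and 2771 and 2761 at day 2. Ndn, Dlk1, Igf2 and Meg3 rose by log2 stage changes of 1.49, 2.42, 1.71 and 2.07. Mest rose from 3501 and 3095 to 5904 and 5829. Plagl1 fell from 808 and 766 to 124 and 104, and H19 (17.8 and 16 in mESCs and 41.1 and 31.9 at day 2) did not pass the test. Of 26 germline genes 7 rose and 9 fell (26.9% and 34.6%, against 29.2% and 29.1% of all genes tested). Tdrd1, Taf7l and Ddx4 rose (2.80, 2.11 and 0.96), and Dazl and Tex19.1 fell (-1.73 and -1.61).

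Within the list of 20 epithelial and mesenchymal genes, 13 rose and 5 fell. Without mESC library A or day 2 library B 3 fell, and with equal library totals 2. The claudin gene Cldn3 had 28.2 and 37.4 in mESCs and 313 and 307 at day 2. Cldn7 had 273 and 335 in mESCs and 2328 and 2118 at day 2. Epcam, a cell adhesion molecule, went from 4608 and 4746 to 15978 and 14276. Esrp1, a splicing factor of epithelia, rose by a log2 stage change of 2.56 ± 0.14. Cdh1 (E-cadherin) and Cdh2 (N-cadherin) both rose, with 9146 and 7339 in mESCs and 16129.5 and 15439 at day 2 for Cdh1 and 133 and 141 in mESCs and 499.8 and 414 at day 2 for Cdh2. The mesenchymal genes Vim and Fn1 fell from 12105 and 11148 to 3648 and 3616 and from 15243 and 13976 to 3427 and 3674, and the repressor Zeb1 from 363 and 309.9 to 229 and 186, which did not pass the test without mESC library A, without day 2 library B or with equal library totals.

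Of 24 genes of sterol synthesis and uptake 22 rose and 2 fell, with a median log2 stage change of 1.09 (WT 1.38, KO 1.27). Fdps, a farnesyl diphosphate synthase, had 6849 and 7494 in mESCs and 22025 and 25035 at day 2. Fdps, Lss and Stard4 rose by 1.71, 1.79 and 1.91 on the log2 scale. The genes that fell were Ebp, a sterol isomerase, from 5513 and 7211 to 704 and 633, and Idi1, from 8110.0 and 9953 to 5536 and 5511. Idi1 did not pass the test when library totals were made equal or when KO+Rescue mESC library B was left out. The sterol element TCACNCCAC (both strands) was found in 1 of the 16 promoters of this list that had an entry, that of Hmgcs1, against 1.44% of 27025 genes. The stretch is shown with the element in capitals. Hmgcs1 rose by a log2 stage change of 0.57 ± 0.13.
Hmgcs1, chr13:119690189-119690247, GRCm38.p6, plus strand: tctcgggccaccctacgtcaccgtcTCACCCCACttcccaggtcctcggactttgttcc

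**Figure D3:**
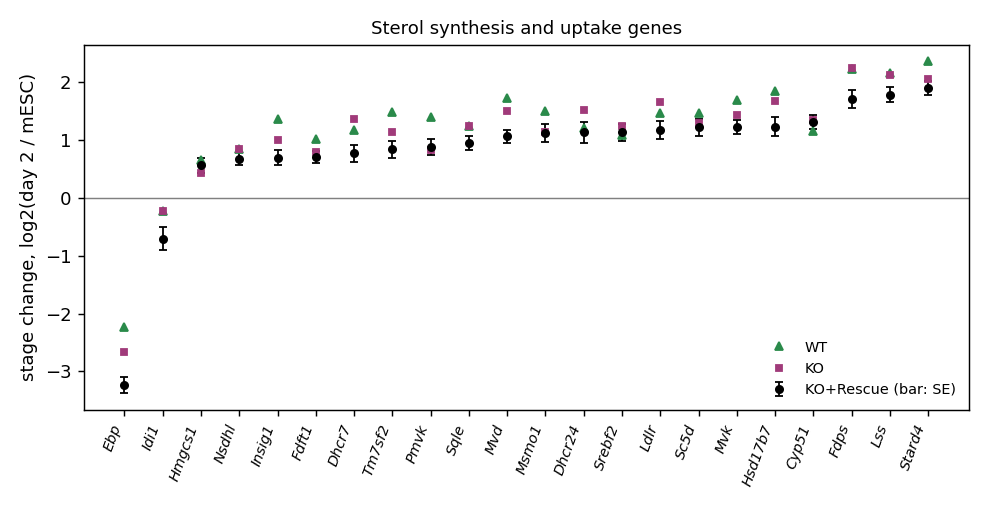
Stage change, as log2 of day 2 over mESC (vertical axis), of 22 of the 24 tested genes of sterol synthesis and uptake in KO+Rescue (black, bar is the SE), WT (green) and KO (purple). Ebp and Idi1 lie below 0 in all lines and the other 20 genes plotted lie above 0.

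Of 12 fatty acid synthesis genes 10 rose, including Fasn, the synthase itself (12321 and 11487 in mESCs and 26791 and 27699 at day 2), and the desaturases Fads1, Fads2, Scd1 and Scd2 (log2 stage changes 1.73, 2.55, 1.90 and 1.79). Glycolysis was mixed, 7 of 21 genes rising and 4 falling. The lactate transporter Slc16a3 rose from 376 and 322 to 8292 and 8279 and the glucose transporter Slc2a1 from 4714 and 4258 to 18253 and 18238. Slc2a3, another glucose transporter, fell from 17269.9 and 15611 to 5312 and 5889, and the phosphofructokinase Pfkp from 3377 and 2909.9 to 784 and 796. Gapdh (111983 and 103152 in mESCs and 100183 and 112711 at day 2) and Ldha (99604 and 95118 in mESCs and 95419.7 and 101399 at day 2) did not pass the test. With equal library totals 13 genes of the list rose and 2 fell, and 2 fell without mESC library A, without day 2 library A and without day 2 library B.

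Of 11 mitochondrially encoded genes 10 fell and none rose (median log2 stage change -1.70, WT -1.75, KO -0.90). COX1 had 104136 and 174552 in mESCs and 36617 and 34082 at day 2, with library B of the mESCs well above library A. Of 20 nuclear respiratory chain genes 14 fell, among them Cox5a (15256 and 17526 in mESCs and 6924 and 6696 at day 2). Of 20 ribosomal protein genes 6 fell (30.0%), a share near the 29.1% of all genes tested. Among them were Rpl7 and Rps6 (log2 stage changes -0.72 and -0.76). Without mESC library B, the one that stood apart, 8 mitochondrially encoded, 8 respiratory chain and 0 ribosomal protein genes fell. Without mESC library A, 11 ribosomal protein genes fell, and with DESeq2 15. Without day 2 library A or day 2 library B, 0 ribosomal protein and 8 respiratory chain genes fell, and a fit of the 4 KO+Rescue libraries alone called 0 ribosomal protein genes. With equal library totals 9, 5 and 1 fell.

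Of 20 genes of the integrated stress response 16 rose and 1 fell. Ddit3 (CHOP), a transcription factor induced by ATF4, had 152 and 153 in mESCs and 2620.0 and 2817 at day 2 (log2 stage change 4.15 ± 0.15). Chac1, Atf3 and Trib3 rose by 3.27, 4.13 and 2.13 on the log2 scale. Ddit4, an inhibitor of mTORC1, went from 822 and 686 to 7902 and 7213. Asns, an amino acid synthesis gene of the same pathway, fell from 12341 and 12664 to 8535 and 8954 (not with equal library totals), and Atf4 itself did not pass the test (12336 and 12997 in mESCs and 14932 and 14679 at day 2). Of 19 p53 targets 11 rose, with the proapoptotic genes Pmaip1 from 1316 and 1257 to 14266 and 12724 and Bbc3 from 350.3 and 299 to 1021 and 1000.4. The p53 targets Cdkn1a (2284 and 1989 in mESCs and 2108 and 2213 at day 2) and Mdm2 (6668 and 5850.2 in mESCs and 8081 and 7274 at day 2) did not pass the test. Mdm2 passed it, as a rise, with edgeR and with equal library totals. Of 12 metallothionein and NRF2 target genes 7 rose and 5 fell. Slc7a11, the cystine transporter, rose from 2.09 and 3.56 to 258 and 171 and Mt3 from 89.9 and 99.7 to 556 and 522, while Mt1 fell from 9278 and 9985 to 5049 and 4415. Mt2 fell from 12547 and 12559 to 5098 and 4582.

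Of 18 G1 regulators 6 rose and 8 fell. Ccnd3 (cyclin D3) went from 8873 and 7312 to 1687 and 1837 and Cdk2 from 4069.7 and 4057 to 1857 and 1837, whereas Rb1 rose (log2 stage change 1.43). Ccne1 (cyclin E1) fell from 22029.7 and 21107 to 11551 and 12276. The median log2 stage change of the list was -0.23, and 0.13 with equal library totals.

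Of 21 interferon and antigen processing genes 12 rose and 7 fell. The antigen presentation genes H2-K1 and Tap1 rose from 265 and 287 to 2329 and 2371 and from 26.1 and 28.5 to 298 and 381. Psmb8, an immunoproteasome subunit, had no read in mESCs and 50.5 and 45.1 at day 2, at least 11.3-fold above the level of 3 reads. Bst2 (tetherin) rose from 981 and 1013 to 2687 and 3189. The genes that fell included the signal transducer Stat2 (376 and 374 in mESCs and 238 and 229 at day 2, not called with equal library totals), and also Oas1a (1227 and 1524 in mESCs and 36.4 and 37.6 at day 2), Irf9 (824 and 801 in mESCs and 73.9 and 51.7 at day 2) and Ifitm3 (4324 and 4306 in mESCs and 1038 and 938 at day 2). Class I genes such as H2-K1 have close paralogs, between which reads may be split.

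Markers of other cell types were read over their whole lists. Primitive endoderm markers were mixed, 6 of 11 tested genes rising (Dab2 from 7.32 and 8.9 to 113 and 106, Gata4 from 16.7 and 17.8 to 55.1 and 48.8) and 2 falling, or 1 without mESC library A or either day 2 library (Sparc from 14551 and 12835 to 2814 and 2368), while the defining factor Gata6 had at most 5.87 in the 4 libraries and the product Ttr no read. Of 8 trophoblast genes 5 fell, among them Tfap2c (2228 and 2281 in mESCs and 39.9 and 67.6 at day 2) and Cdx2 (59.6 and 46.3 in mESCs and 25.8 and 14.1 at day 2, not called without day 2 library B), and the keratins Krt8 and Krt18 rose (2.08 and 2.59 on the log2 scale). Of 7 fibroblast and feeder genes 4 rose, with Dcn from 0 and 1.78 to 188 and 179 and Thy1 from 113 and 74.8 to 463 and 512, while Lum had no read in any of the 4 libraries. Of 5 blood and endothelial genes 3 rose, with Cd34 from 71.1 and 30.3 to 265 and 238, and the haemoglobin gene Hbb-bh1 had no read. Genes with few mESC reads, such as Dcn and Dab2, passed the filter through day 2 values, so these counts of rises are no separate evidence. The part of such cells in the results above was not tested.

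The largest rises, among genes with a group mean of at least 50, included Btbd17 (2.09 and 3.56 in mESCs and 1385 and 1481 at day 2, log2 stage change 8.58), Spon1, which encodes F-spondin (2.09 and 1.78 in mESCs and 959 and 884 at day 2), and Sema6a, which encodes a transmembrane semaphorin (14.6 and 14.2 in mESCs and 3508 and 3313 at day 2). Jakmip2, Zfp608, Stmn4, Slc35d3 and Ttbk1 rose by log2 stage changes between 7.34 and 8.22. Fat3, an atypical cadherin, had no read in mESCs and 269.9 and 262 at day 2 (at least 62.7-fold above the level of 3 reads), and the kinase gene Brsk2 150.2 and 195 (at least 40.8-fold). H2-Q6 rose too, and has close paralogs. The largest fall was that of Jam2, a junctional adhesion molecule, with 11472 and 13399 in mESCs and 22.3 and 15 at day 2 (log2 stage change -9.33 ± 0.19). Obox6, a homeobox gene, fell from 1324 and 1268 to 3.52 and 0.939, and Hal, the histidine ammonia lyase, from 2095 and 2069 to 9.39 and 18.8. Myo1f and Trpm1 had log2 stage changes of -6.94 and -6.90. Lrrc31, Mep1b and Platr6 had no read at day 2 against means of 138, 125 and 122 in mESCs. In normalised counts the largest gains were those of Tuba1a, Dnmt3b, Eno1, Eef2 and Ncl, and the largest losses those of Hspa8 (619211 and 695910.0 in mESCs and 333893 and 357103 at day 2), Dppa5a (214352 and 356801 in mESCs and 24733 and 32519 at day 2), H2afz, Eif2s2 and COX1. The rises of Eno1, Eef2 and Ncl did not pass the test without mESC library B, day 2 library A or day 2 library B, and the fall of Hspa8 not without day 2 library A.

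The stage change of the KO+Rescue line was then set beside those of WT and KO, which were measured in other libraries. Across the 15341 genes the log2 stage changes correlated with Pearson's r of 0.915 (Spearman's rho 0.888) with WT and 0.936 (0.919) with KO. These values are over genes, which are not independent replicates. Of the genes called in KO+Rescue, 6637 (74.3%) were called in the same direction in WT and 24 in the opposite direction. For KO the numbers were 7526 (84.2%) and 10. Of all genes tested, 7967 (51.9%) were called in WT and 9219 (60.1%) in KO, so more calls were there to be shared with KO. Seen from the other side, the genes shared with KO+Rescue made up 83.3% of the WT calls and 81.6% of the KO calls.

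To ask which genes differed, the stage change of KO+Rescue was tested against that of WT in 1 model. The difference was higher in KO+Rescue for 34 genes (0.222%) and lower for 90 (0.587%). With TMM scaling 45 were higher and 59 lower. Leaving out KO+Rescue mESC library B gave 27 genes in all, KO+Rescue day 2 library A or B 34 and 28, WT mESC library A 51, WT day 2 library B 63, and WT day 2 library A 230. The largest positive differences included Grb10, which went from 268 and 287 to 2771 and 2761 in KO+Rescue and from 3792 and 2858 to 6002 and 4629.9 in WT (difference of log2 stage changes 2.64 ± 0.23, adjusted p = 0.00048). The WT and KO+Rescue values of Grb10 differed in mESCs by more than at day 2, and KO went from 615 and 544 to 3167 and 3515. Egr1 likewise started lower in KO+Rescue and KO than in WT (151 and 162 to 1104 and 1014 in WT). Sema6a rose from a lower mESC level in KO+Rescue than in WT, where it went from 94.8 and 56 to 3039 and 2586 (difference 2.54 ± 0.30, adjusted p = 0.00169). Hmga2, which encodes a chromatin protein and is a let-7 target, went from 305 and 305 to 422 and 367 in KO+Rescue, which did not pass the test, whereas WT went from 889 and 693 to 243 and 281 (difference 1.95 ± 0.23). T fell less than in WT (difference 2.03), from a lower start. The stress genes Ddit3 and Chac1 had differences of 1.38 and 1.53.

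The genes with a lower stage change than WT included 3 of the interferon list, Zbp1, Irf1 and Ifitm3. Zbp1, a sensor of nucleic acids, went from 27.2 and 33.8 to 4.69 and 2.82 in KO+Rescue, 47.1 and 45.9 to 2.95 and 5.24 in KO and 65.2 and 62.1 to 130.1 and 146 in WT (difference from WT -3.85 ± 0.54, adjusted p = 0.00752). Irf1, an interferon-induced transcription factor, went from 1041 and 1013 to 558 and 480.0 in KO+Rescue, 1053 and 1113 to 725 and 768 in KO and 1341 and 1385 to 2228 and 2715 in WT (difference -1.84 ± 0.19). Zbp1 and Irf1 thus fell in KO+Rescue and rose in WT. Mt1, a metallothionein, fell from 9278 and 9985 to 5049 and 4415, while WT went from 9499 and 8193 to 13362 and 10339 (difference -1.44 ± 0.20). Nqo1, an NRF2 target, fell in KO+Rescue and had a log2 stage change of 0.38 in WT (difference -1.52). Gsta3, which encodes a glutathione transferase, fell further than in WT (difference -3.22 ± 0.37). Lefty1 had a log2 stage change of 0.25 in KO+Rescue and 2.09 in WT, where it went from 1808 and 1829.5 to 6976 and 8595 (difference -1.84 ± 0.22, adjusted p = 0.0017). Among naive genes, Esrrb, Dppa3 and Pecam1 fell further than in WT, by -1.69, -1.69 and -1.36. Cldn4 fell in KO+Rescue and rose in WT (-0.56 and 0.84), the fall not with equal library totals. Of the differences from WT described here, those of Grb10, Sema6a, Hmga2, Zbp1, Irf1, Gsta3, Lefty1 and Cldn4 were called in all 8 fits that left out a KO+Rescue or WT library. The others were lost in at least 1 of these fits, and Ifitm3, Egr1, T, Dppa3 and Nqo1 in most of them. With equal library totals Egr1, Mt1, Esrrb, Pecam1 and Ifitm3 were lost, and with edgeR Ifitm3.

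Against the stage change of the KO line, from which the KO+Rescue line was made, the difference was higher for 5 genes (0.0326%) and lower for 8 (0.0521%). With TMM scaling 7 were higher and 6 lower. Trh, which encodes the precursor of thyrotropin-releasing hormone, had the smallest adjusted p (3.06e-05). It went from 21568 and 21595 to 2685 and 2413 in KO+Rescue, 14167 and 15201 to 12233 and 11450.4 in KO and 24519 and 30549.9 to 5199.8 and 5718 in WT (difference from KO -2.77 ± 0.19). Trh thus fell in KO+Rescue and WT, while in KO its log2 stage change of -0.31 did not pass the test (adjusted p = 0.0608). Eomes fell from 756 and 657 to 73.9 and 51.7 in KO+Rescue and from 571 and 556 to 310.2 and 312 in KO (difference -2.64 ± 0.35, adjusted p = 0.0158). Nodal fell from 4432 and 4509 to 855 and 871 in KO+Rescue and from 5009 and 5263 to 2583 and 2355 in KO (difference -1.31 ± 0.20). Its inhibitors and targets Lefty1 and Lefty2 had differences from KO of -1.51 and -1.14. Foxn4 and Pid1 were also among the lower genes, besides Trh. The 5 higher genes were Sema6a (2.33), the imprinted Peg10 (1.66), Ube2l6 (1.59), Dmrt1 (1.41) and Trap1a (1.37). Peg10 and Dmrt1 rose in KO+Rescue and fell in KO, although the rise of Peg10 did not pass the test when any KO+Rescue library was left out. At an unadjusted p under 0.05 there were 1418 genes against KO and 1992 against WT. When each of the 8 KO+Rescue and KO libraries was left out in turn, 1 or 2 genes were called against KO. Trh was called in each of these fits, with differences between -2.85 and -2.70. Both differences use the KO+Rescue libraries, and Lefty1, Lefty2 and Sema6a were called in each.

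**Figure D4:**
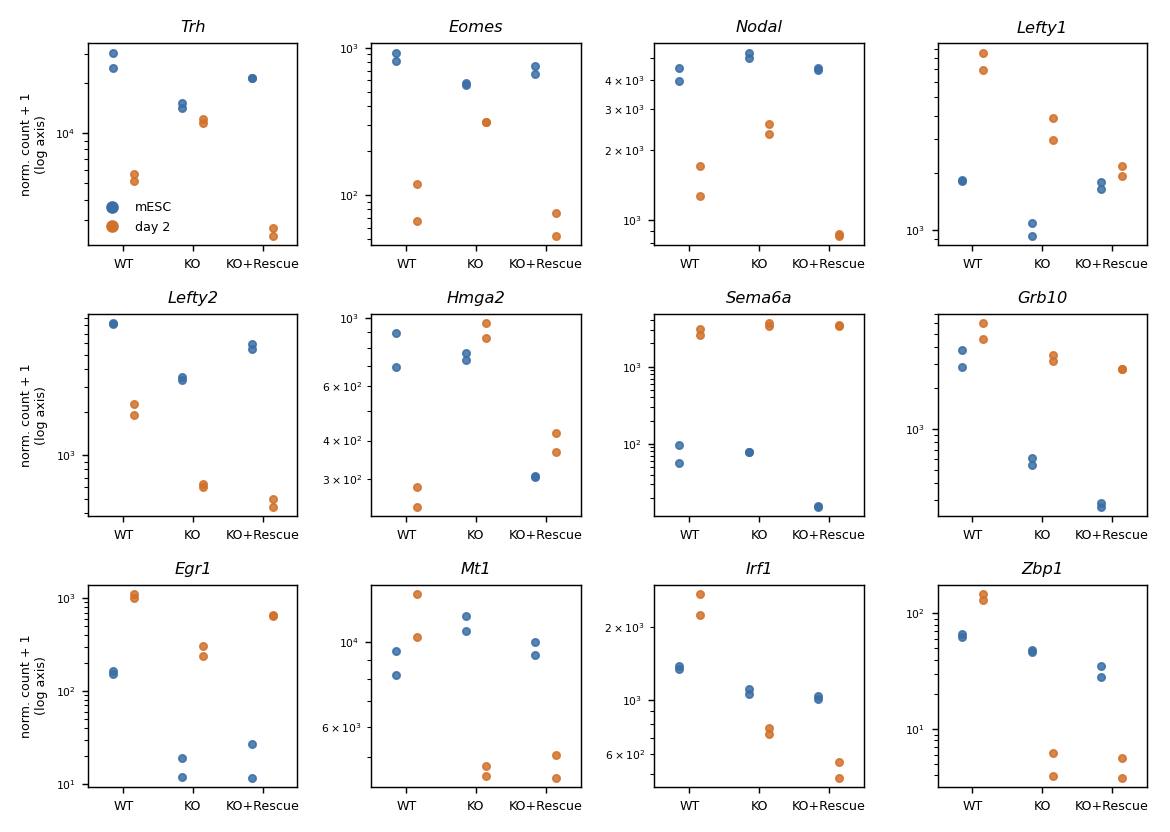
Normalised count plus 1 (log axis, scaled for each gene) in the 12 libraries for 12 genes whose stage change in KO+Rescue differed from that in WT or KO, with mESC libraries in blue and day 2 libraries in orange. The day 2 points of Trh lie lower than the mESC points by far more in KO+Rescue and WT than in KO, while Mt1, Irf1 and Zbp1 rise in WT and fall in KO+Rescue.

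The study singled out a set of developmental regulators, chosen on these libraries, so their direction is not independent evidence. In KO+Rescue, 6 of the 8 that could be tested rose. Mef2c had 3.14 and 0 in mESCs and 23.5 and 25.4 at day 2, Prdm8 0 and 0 in mESCs and 16.4 and 9.39 at day 2, Barx1 7.32 and 14.2 in mESCs and 36.4 and 47 at day 2, and Tbx15 4.18 and 10.7 in mESCs and 28.2 and 46 at day 2. Pax6 rose by a log2 stage change of 1.29. Cbx8 (68 and 76.6 in mESCs and 61 and 72.3 at day 2, adjusted p = 0.724) did not pass the test, and Eya4 did not reach the filter.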

How the data were processed

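The deposited signal values are normalised read counts: per the labels and the methods of the study, the authors trimmed reads with Trimmomatic, aligned them to mm10 with STAR, counted read pairs per RefSeq gene with featureCounts, removed Y chromosome reads and scaled libraries with DESeq2. Tool versions are not given in the sources used here. Library preparation kept strand, but the strand setting of the counting is not given, so antisense genes are uncertain. Every value was a whole multiple (tolerance 0.001) of the smallest value of its column, which gave the reads per gene and the depth. The columns carry line codes, of which the code with R was read as KO+Rescue and the same code without R as KO. The letters A and B were not matched to the labelled replicate numbers. No value column was left unmapped (0).

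Genes with a mean of at least 10 over the 12 libraries entered 1 limma fit (version 3.58.1, R 4.3.3) on log2(normalised count + 1) with 6 group means, a trended variance prior and Benjamini-Hochberg adjustment. A gene was called at an adjusted p under 0.05. Fold changes are on that scale and understate those of low genes. Where a group had no read, the bound was set at 3 reads per library. The residual degrees of freedom were 6. Both libraries of each group are labelled as biological replicates. The SEs and p-values rest on the spread between replicates within a group, pooled over the 6 groups of all lines and stages. They do not measure the spread between clones. Differences of stage changes are contrasts of the same fit. edgeR (4.0.16) and DESeq2 (1.42.0) on the recovered reads, other scalings, pseudocounts and filters, a block for the letter, and leaving out each library were alternatives. Same-lettered libraries of the 2 stages correlated at 0.035 in KO+Rescue, 0.048 in KO and 0.413 in WT. Letters were not taken as pairs, although a pairing may hold in WT. A replicate block within genotype moved the count of genes called against WT from 124 to 1435.

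Named genes were Proser1, the genes with the largest log2 change (12 a direction, higher group mean at least 50, no overlap, named symbols), the largest change in normalised count, up to 4 genes of each list with the smallest adjusted p, the genes named by the study, and the largest differences of stage change. List members called in a difference, and a few familiar genes, were added after their values were seen. The lists and the comparison were chosen with earlier results of these data known. Some genes that the rule names are not reported here, although they count in the totals.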

Additional observations from a re-analysis of the deposited data

Results flagged for a closer look

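Results are given here where the stage change of the KO+Rescue line differed from that of WT or KO by the limma test of the difference itself, as differences of log2 stage changes. Groups of 2 libraries allow no test of a single library against its group.

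Against WT, the stage change was higher for Hrk (2.96), Grb10 (2.64), Sema6a (2.54), Egr1 (2.43), Plxnc1 (2.38), T (2.03), Hmga2 (1.95), Chac1 (1.53), Ddit3 (1.38), Sycp1 (1.29), Pim2 (1.14) and Ddx4 (0.83). It was lower for the interferon-related Zbp1 (-3.85), Gbp4 (-3.17), Irf1 (-1.84) and Ifitm3 (-0.77), and for the detoxification genes Gsta3 (-3.22), Nqo1 (-1.52), Mt1 (-1.44), Mt2 (-1.22) and Srxn1 (-0.88). It was also lower for Asb4 (-3.51), Olfml1 (-3.34), Tgfbi (-3.16), Lefty1 (-1.84), Lefty2 (-1.62), Tfap2c (-1.84), Esrrb (-1.69), Dppa3 (-1.69), Id1 (-1.45), Cldn4 (-1.40), Pecam1 (-1.36), Ebp (-1.0) and Tex19.1 (-0.98). Of all 124 genes called against WT, 17 were called in each of the 8 fits that left out a library, and 40 with equal library totals. Among those named, Grb10, Sema6a, Hmga2, Gsta3, Zbp1, Irf1, Lefty1, Lefty2 and Cldn4 were called in all 8. Htr3a had no read in the KO+Rescue mESC libraries, so its fitted difference (2.57) depends on the pseudocount and ran from 0.71 to 5.59 over the fits. It was called in none of the 8, nor with edgeR, DESeq2 or equal library totals. Ddx4 was likewise called in none of the 8, and Hrk, Egr1, Plxnc1, Sycp1, Ifitm3 and Tex19.1 in at most 2. All of these were lost with equal library totals.

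Against KO, the stage change was lower for Trh (-2.77), Eomes (-2.64), Foxn4 (-1.98), Lefty1 (-1.51), Nodal (-1.31), Lefty2 (-1.14) and Pid1 (-1.02). It was higher for Sema6a (2.33), Peg10 (1.66), Ube2l6 (1.59), Dmrt1 (1.41) and Trap1a (1.37). Of all 13 genes called against KO, 1 (Trh) was called whichever library was left out, and 7 with equal library totals. The KO+Rescue line is a subclone, so the effect of the transgene and that of cloning cannot be told apart.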

How the results depend on the processing

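The count of genes called between the stages in KO+Rescue stayed within 1.5 times of 8935 under every alternative run, and leaving out each KO+Rescue library gave 6976 to 8100. Of 310 named genes, 306 were on the same side of the threshold and in the same direction with edgeR, 309 with DESeq2 and 280 with equal library totals, and 280 in each fit that left out a library. Some genes that had not passed the test were called as rises with equal library totals, among them Mdm2, Atf4, Sall4, Lefty1, Hmga2 and Ldha. Mdm2 and Hmga2 were also called with edgeR. The direction turned for Ezh2, and for genes that had not passed the test. With equal library totals Cbx8 was 0.24, Fos 0.0954, Spry2 0.19, Ezh2 0.0944, Gapdh 0.351 and Dnmt1 0.27, and with edgeR and with TMM scaling Gapdh was 0.0372. Over the fits that left out a KO+Rescue library Cbx8 ranged from -0.238 to 0.0036, Proser1 from -0.0342 to 0.0932, Sycp1 from -0.029 to 0.173, Cdkn1a from -0.0802 to 0.119, Gapdh from -0.101 to 0.0686 and Ldha from -0.0287 to 0.059. The differences of stage changes moved more. Against WT (124 genes) the count was 372 with DESeq2, 40 with equal library totals, 41 with no filter on low values, and 27 to 230 when a library was left out. Against KO (13 genes) it was 85 with DESeq2, 7 with equal library totals, 4 with no filter, and 1 to 2 when a library was left out. The lowest count against WT was without KO+Rescue mESC library B and the highest without WT day 2 library A. A lone library left in a group is assumed to vary like the others. With a replicate block for the letter, which the labels do not carry, the counts were 9916 between stages, 410 against WT and 65 against KO. With a replicate block within genotype they were 10651, 1435 and 531. The cause of these shifts was not tested. With 2 libraries a group, stage changes under about 1.2-fold were not called.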

Other observations

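Several small lists were not described above. Of 11 genes of the 2-cell-like state 4 passed the filter on low values, all of them Zscan4 genes. These 4 fell, with Zscan4a from 72.1 and 107 to 4.69 and 2.82 and Zscan4d from 94.1 and 96.2 to 7.04 and 22.5. Their mESC values carried them past the filter, so the shared direction is not separate evidence. With a mean of at least 50 required, no gene of the list was left. The Zscan4 genes are near-identical copies, so reads may be split between them and the 4 are not independent. Of 39 Hox genes 6 passed the filter on low values, of which Hoxc13, Hoxb13 and Hoxb9 fell (log2 stage changes -2.72, -2.48 and -2.19). The call of Hoxb13 was lost without mESC library B or day 2 library B.

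Of 8 selenoprotein genes 4 rose and 4 fell. The glutathione peroxidase gene Gpx1 went from 81103 and 110834 to 21581 and 25430.2 and Msrb1 from 2024 and 1952 to 827 and 689, whereas Gpx3 rose from 125 and 132 to 405 and 506 and Txnrd1, a thioredoxin reductase, from 15197 and 12479 to 28079 and 28215. In the Myc and Mxd family 4 of 11 genes rose and 4 fell (36.4% each, against 29.2% and 29.1% of all genes tested). Max, the shared partner of the family, went from 3406 and 3473 to 1741 and 1875, Mxi1 from 1110.5 and 979 to 542 and 498 and Mlx from 5227 and 6108 to 2308 and 2531, while Mxd4 rose from 9.41 and 16 to 71.6 and 93.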
